A study of Mus musculus with 6 samples.

Results

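Complement is a set of plasma proteins and cell surface receptors that tags microbes and dying cells for uptake. Its classical arm starts when C1q, built from the A, B and C chains encoded by C1qa, C1qb and C1qc, binds antibody or cell debris. Its lectin arm starts from ficolins and collectins that bind sugars, and its alternative arm is stabilised by properdin. Tissue macrophages make C1q and carry receptors for fragments of C3, and they are a main source of C1q in the body. The genes examined here were C1qa, C1qb, C1qc, C3, C4b, Cfp (properdin), C3ar1 (the receptor for the fragment C3a), Vsig4 (the receptor CRIg, which binds C3b and iC3b) and Fcna (ficolin A).

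They were measured in macrophages that reside in the mouse peritoneal cavity, on 3 Gata6-KO arrays and 3 Gata6-WT arrays. Gata6 encodes a transcription factor of these cells. The Gata6-KO mice carried a conditional, floxed deletion of the gene, and the Gata6-WT mice were wild type; both were 7 weeks old and matched for sex. Each array held total RNA from 2 to 3 mice whose lavage cells were combined and sorted for high CD11b and low or no MHC class II, in both genotypes. Neither the Cre driver nor the extent of the deletion is stated in the labels used here.

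The members were taken as every probe set that the array annotation assigns to a single listed symbol. Of the 9 listed genes, 7 had such a probe set, 12 probe sets in all among 34958 with 1 symbol. C3 and C4b had none and were not analysed here. All 12 probe sets lay above the signal filter (mean of log2(signal + 16) above the 40th percentile), so all were tested, among 27022 probe sets and 12511 genes. Values are linear signals as deposited, and differences are on the log2(signal + 16) scale, Gata6-KO minus Gata6-WT.

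The RefSeq windows upstream of Fcna, Vsig4, C1qb and C1qc are shown because Fcna and Vsig4 had the largest differences in either direction, and because C1qb and C1qc lie next to each other and shared a direction. Each is the 250 bases before the RefSeq start on the minus strand of GRCm38.p6, at chr2:25627975-25628224 for Fcna, chrX:96293439-96293688 for Vsig4, chr4:136886201-136886450 for C1qb and chr4:136892915-136893164 for C1qc. Windows were given for 7 of the 9 genes (not C1qa or C4b). Capitals mark the GATA hexamers AGATAA or AGATAG or TGATAA or TGATAG and the PU box GAGGAA, the core bound by the macrophage factor PU.1, each searched on both strands.
Fcna: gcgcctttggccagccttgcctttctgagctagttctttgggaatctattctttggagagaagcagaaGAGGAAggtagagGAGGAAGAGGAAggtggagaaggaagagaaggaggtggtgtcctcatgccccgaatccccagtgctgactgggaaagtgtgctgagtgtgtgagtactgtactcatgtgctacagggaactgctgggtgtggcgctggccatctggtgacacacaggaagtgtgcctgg
Vsig4: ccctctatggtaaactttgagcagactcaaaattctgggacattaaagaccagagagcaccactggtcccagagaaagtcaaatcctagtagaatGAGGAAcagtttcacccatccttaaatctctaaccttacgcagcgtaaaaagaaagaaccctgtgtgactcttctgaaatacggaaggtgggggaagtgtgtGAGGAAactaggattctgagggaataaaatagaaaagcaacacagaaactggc
C1qb: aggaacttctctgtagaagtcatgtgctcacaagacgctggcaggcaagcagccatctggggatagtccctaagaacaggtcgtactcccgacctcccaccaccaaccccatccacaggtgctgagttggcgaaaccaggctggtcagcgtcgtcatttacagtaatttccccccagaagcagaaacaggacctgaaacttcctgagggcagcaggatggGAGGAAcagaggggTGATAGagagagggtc
C1qc: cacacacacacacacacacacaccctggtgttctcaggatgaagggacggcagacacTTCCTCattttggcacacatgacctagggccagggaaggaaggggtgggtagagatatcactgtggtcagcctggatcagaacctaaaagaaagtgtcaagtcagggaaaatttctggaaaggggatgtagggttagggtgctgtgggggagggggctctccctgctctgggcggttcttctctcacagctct

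The Fcna window held 3 PU boxes and 0 GATA hexamers. The Vsig4 window held 2 PU boxes and 0 GATA hexamers. C1qb had 1 of each and C1qc 1 PU box, and C3ar1, whose window is not shown, had 2 GATA hexamers. The windows of C3 and Cfp, also not shown, held 0 GATA hexamers and 0 PU boxes. Among 32851 such windows, 26.5% held a GATA hexamer and 23.2% a PU box. A match is a description of the letters, not of binding.

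Of the 7 measured genes, Fcna alone passed the test, and it was higher in Gata6-KO macrophages. That is 1 gene higher, where 5.61% of all tested genes were called higher, and 0 lower, where 7.46% were (limma, Benjamini-Hochberg adjusted p under 0.05). At an unadjusted p under 0.05, 2 members were higher (Fcna and C1qb) and 2 lower (Vsig4 and C3ar1), against 11.9% and 15.9% of all tested genes. The median log2 difference of the 7 genes was 0.11, against -0.04 over all tested genes. The groups did not overlap for 4 of the 7, namely Fcna, C1qb, C3ar1 and Vsig4, and for 34.4% of all tested genes.

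**Figure D1:**
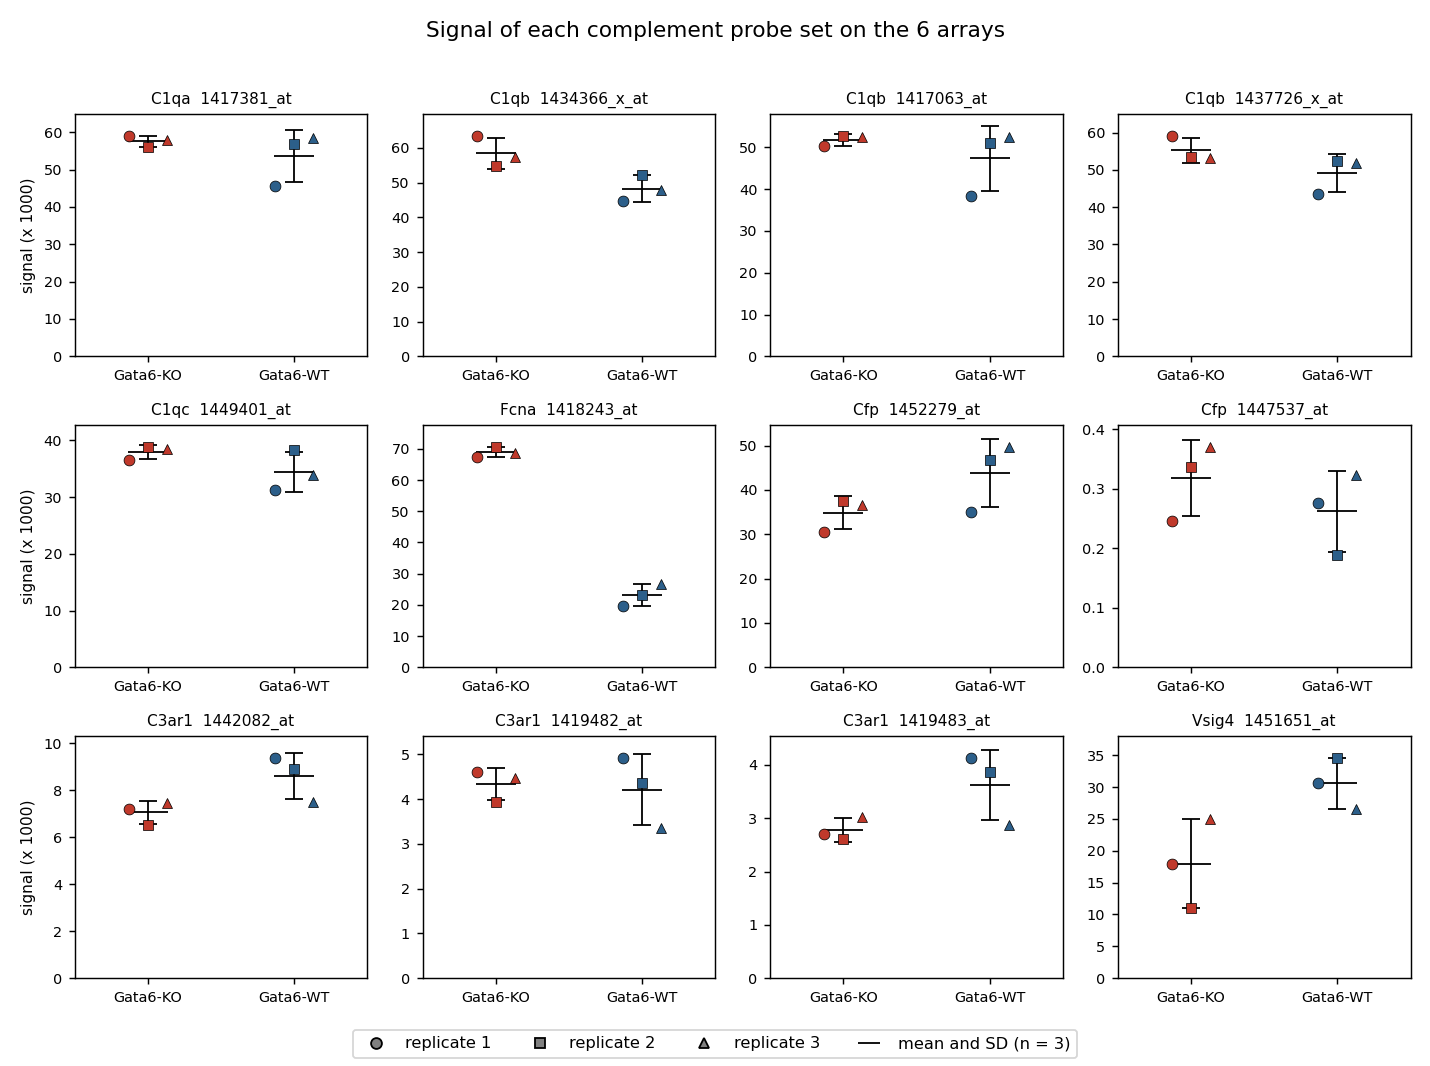
Signal (linear axis from 0) of each of the 12 complement probe sets, with Gata6-KO arrays on the left and Gata6-WT arrays on the right of each panel. Marker shapes are replicates and bars are mean and SD (n = 3). Fcna stands apart, with 67332 to 70492 in Gata6-KO and 19642 to 26684 in Gata6-WT.

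Ficolin A recognises acetylated sugars on microbes and starts the lectin arm with the MASP proteases. Fcna had signals of 67332, 70492 and 68804 in Gata6-KO replicates 1, 2 and 3, and of 19642, 23179 and 26684 in the Gata6-WT replicates. The lowest Gata6-KO array was far above the highest Gata6-WT array. Fcna averaged 68876 ± 1581 in Gata6-KO and 23168 ± 3521 in Gata6-WT (SD, n = 3 each), a 2.99-fold rise with a 95% interval of 2.47 to 3.63 (log2 1.58 ± 0.12 SE, limma adjusted p = 7.0e-05). The Gata6-KO arrays differed little among themselves, and these signals lie high on the intensity scale, whose largest value was 92241 to 114408 on the Gata6-KO arrays and 75404 to 108900 on the Gata6-WT arrays. Among tested genes, 116 had a larger rise than Fcna. In bulk RNA, a change in the number of cells of a type and a change in RNA per cell cannot be told apart.

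C1q is the recognition protein of the classical arm. With the deposited scaling, its chain genes had differences within or close to the spread of the replicates. C1qa, the A chain, had 58924, 56075 and 57924 in Gata6-KO and 45665, 56760 and 58353 in Gata6-WT. The groups overlapped, with Gata6-WT replicate 1 as the low array (log2 0.11 ± 0.12 SE, limma adjusted p = 0.61, 95% interval of the fold 0.90 to 1.30).

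C1qb, the B chain, was read by 3 probe sets. The one with the highest mean, whose name ends in _x_at, had 63333, 54658 and 57356 in Gata6-KO and 44812, 52278 and 47824 in Gata6-WT. The groups did not overlap there, and the difference did not pass (1.21-fold, log2 0.28 ± 0.11 SE, limma adjusted p = 0.15). By the array maker's naming, this suffix marks probe sets some of whose probes may match other transcripts. The C1qb probe set without that suffix had 50211, 52633 and 52389 in Gata6-KO and 38349, 51071 and 52556 in Gata6-WT, which overlap (log2 0.14 ± 0.13 SE, limma adjusted p = 0.56). The remaining C1qb probe set, also _x_at, differed by a log2 of 0.17 (limma adjusted p = 0.39). Its groups did not overlap either, but nearly touched, at 53202 in the lowest Gata6-KO array and 52410 in the highest Gata6-WT array.

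C1qc, the C chain, had 36544, 38783 and 38506 in Gata6-KO and 31275, 38306 and 33810 in Gata6-WT. The groups overlapped, with Gata6-WT replicate 2 among the Gata6-KO values (log2 0.14 ± 0.11 SE, limma adjusted p = 0.46, 95% interval of the fold 0.93 to 1.30). After quantile normalization, C1qb and C1qc passed the threshold as higher in Gata6-KO, at log2 0.35 (adjusted p = 0.049) and 0.32 (adjusted p = 0.042). All 5 C1q probe sets had a difference above 0 with the deposited scaling. Their ranks by signal within each array, counted from the brightest, did not overlap between genotypes. C1qa ranked 21 to 23 in Gata6-KO and 37 to 54 in Gata6-WT, and C1qc 103 to 141 and 173 to 224. Whether the C1q groups overlapped thus depended on the scale used.

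**Figure D2:**
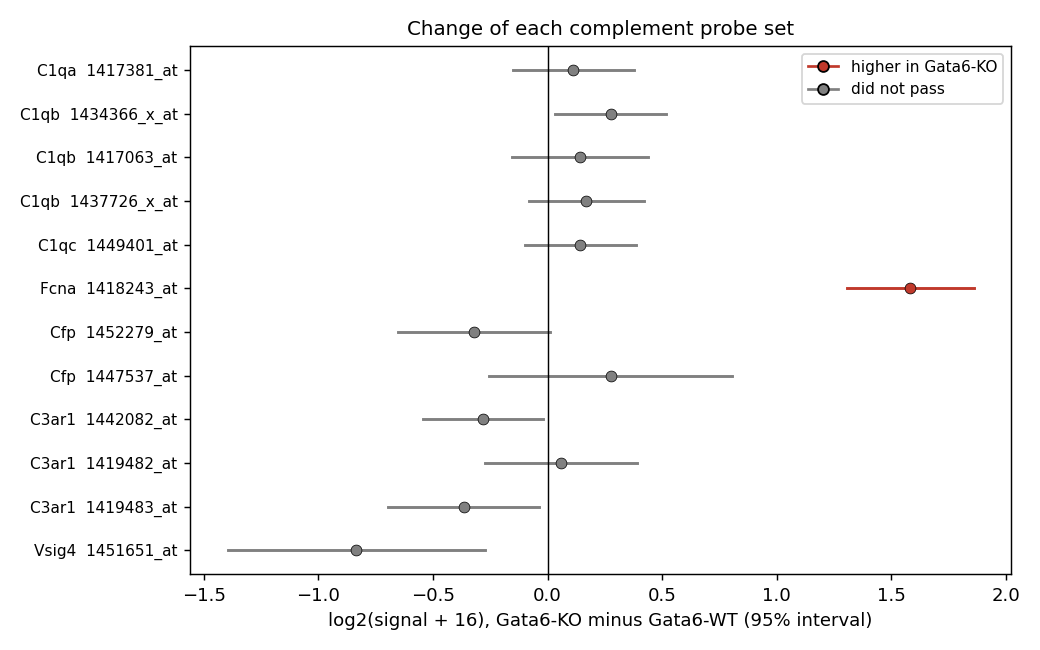
Difference in log2(signal + 16), Gata6-KO minus Gata6-WT, of each of the 12 complement probe sets, with points for the estimate and lines for the 95% interval from limma. Fcna, at 1.58, is the probe set that passed, and the 5 C1q probe sets lie between 0.11 and 0.28.

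The change of the 3 chains relative to each other was read per array, since they form 1 protein, with C1qb at its _x_at probe set of highest mean. C1qa minus C1qb differed between genotypes by a log2 of -0.16 (exact two-sided permutation p = 0.2), C1qc minus C1qb by -0.13 (exact p = 0.3) and C1qa minus C1qc by -0.03 (exact p = 0.8). Adjusted over the 3 pairs, these were 0.45, 0.45 and 0.8, and the smallest exact p with 3 against 3 arrays is 0.1, so this test could not pass the threshold whatever the values. The differences depended on the C1qb probe set: with the one without the suffix, C1qa minus C1qb was -0.029 and C1qc minus C1qb 0.00080, and with the other _x_at probe set they were -0.056 and -0.026. After quantile normalization C1qa minus C1qc was -0.14 (exact p = 0.1).

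Properdin binds and holds together the C3 convertase of the alternative arm. Its gene Cfp had 30523, 37405 and 36689 in Gata6-KO and 35103, 46853 and 49637 in Gata6-WT at the brighter probe set. Gata6-WT replicate 1 lay within the Gata6-KO range, so the groups overlapped (log2 -0.32 ± 0.15 SE, limma adjusted p = 0.22, 95% interval of the fold 0.64 to 1.01). Without Gata6-WT replicate 1 the difference was -0.47 and passed (adjusted p = 0.033). The dim Cfp probe set pointed the other way, with 246, 337 and 370 in Gata6-KO and 276, 188 and 323 in Gata6-WT (log2 0.27 ± 0.24 SE, limma adjusted p = 0.52).

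Vsig4 captures complement-coated particles from the fluid and damps the alternative arm. It had 17921, 11023 and 24958 in Gata6-KO and 30592, 34518 and 26561 in Gata6-WT. All 3 Gata6-KO arrays were below the Gata6-WT arrays, but Gata6-KO replicate 3 came close to the lowest Gata6-WT array and replicate 2 was far lower. Vsig4 averaged 17967 ± 6967 in Gata6-KO and 30557 ± 3978 in Gata6-WT (SD, n = 3 each), 1.78-fold lower (log2 -0.84 ± 0.25 SE, limma adjusted p = 0.065). The 95% interval of the fold, 0.38 to 0.83 of wild type, leaves out 1 because it is not adjusted for the number of probe sets. Vsig4 passed without Gata6-KO replicate 3 (log2 -1.11, adjusted p = 0.017), after median scaling (-0.89, adjusted p = 0.036) and with array weights (-0.97, adjusted p = 0.030). Without Gata6-KO replicate 2 it was -0.52 (adjusted p = 0.13).

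C3ar1 encodes a G protein-coupled receptor through which C3a acts on leukocytes. At the probe set with the highest mean it had 7186, 6504 and 7475 in Gata6-KO and 9359, 8920 and 7498 in Gata6-WT. The highest Gata6-KO and lowest Gata6-WT values nearly touched (log2 -0.28 ± 0.12 SE, limma adjusted p = 0.17). The dimmest C3ar1 probe set had 2714, 2605 and 3026 in Gata6-KO and 4126, 3875 and 2873 in Gata6-WT (log2 -0.37, limma adjusted p = 0.16). The intermediate C3ar1 probe set was at 0.06 (adjusted p = 0.85), so the probe sets of C3ar1 disagree in sign and none passed.

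Replicate 1 of each genotype was low in Xist and high in the Y-linked gene Eif2s3y, at 102 and 3494 in Gata6-KO and 113 and 3674 in Gata6-WT, and the other arrays showed the opposite, so values are also given separately for the male-type replicate 1 and the other replicates. Fcna was higher in both, by a log2 of 1.48 in replicates 2 and 3 and 1.78 in replicate 1. Vsig4 was at -0.87 in replicates 2 and 3 and -0.77 in replicate 1. The C1q differences were larger in replicate 1 than in replicates 2 and 3. C1qa was at -0.014 in replicates 2 and 3 and 0.37 in replicate 1, C1qb at 0.16 and 0.50, and C1qc at 0.10 and 0.22. A limma interaction term between type and genotype gave adjusted p = 1.00 at every member probe set, with 1 array per genotype in replicate 1. Its smallest unadjusted p among the members were at C1q probe sets, 0.044 at the _x_at probe set of C1qb with the lower mean, 0.057 at C1qa and 0.065 at the C1qb probe set without the suffix.

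The arrays also departed from their genotype means in a shared way. Gata6-WT replicate 1 was below its genotype mean for all 5 C1q probe sets, by a log2 of 0.11 to 0.29, for Fcna by 0.23 and for the brighter Cfp probe set by 0.31, while the 3 C3ar1 probe sets were above it by 0.13 to 0.24. In Gata6-KO, the C1q probe sets stayed within 0.12 of their mean. Vsig4 had the widest spread of the members there, at -0.63 in Gata6-KO replicate 2 and 0.55 in replicate 3.

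**Figure D3:**
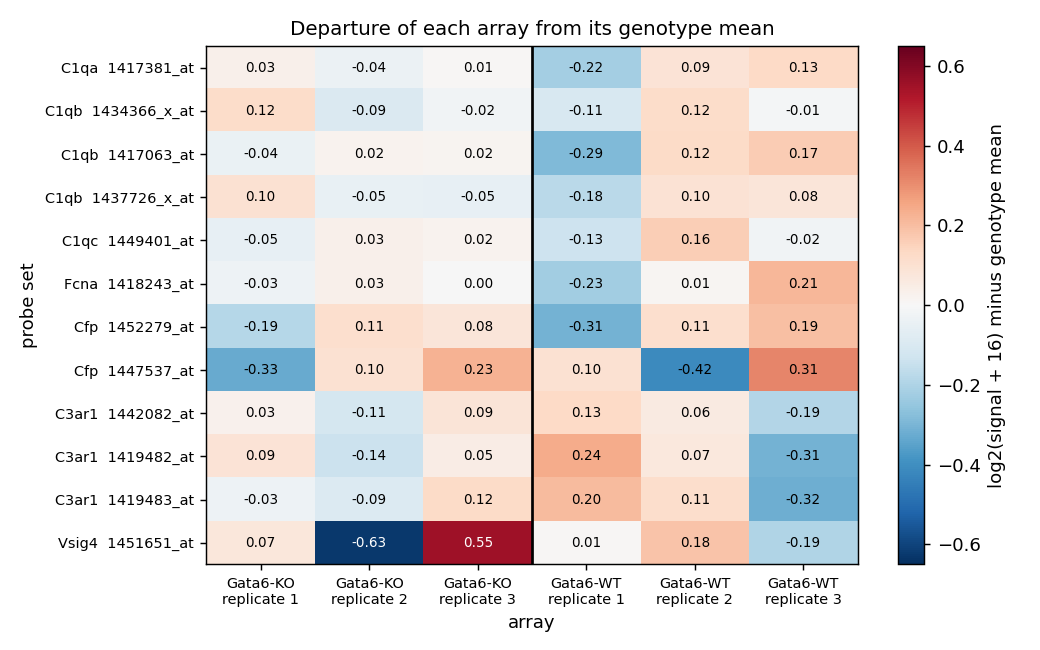
Log2(signal + 16) of each array minus the mean of its genotype for the 12 complement probe sets, with Gata6-KO arrays left of the line and Gata6-WT arrays right of it. Red is above and blue below the genotype mean. Gata6-WT replicate 1 is blue for the C1q genes, Fcna and the brighter Cfp probe set, and the strongest colours are those of Vsig4 in Gata6-KO replicates 2 and 3.

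The genes most like each profile over the 6 arrays were named by Pearson's r of log2 values, as a description. The arrays share the genotype difference, and r was the highest among all tested genes other than the members. Gnpda1, Folr1 and the mannose receptor gene Mrc1 were most like Fcna (r = 0.998 for each), and all 3 were higher in Gata6-KO. Tmtc4, Fgl2 and Sat2 were most like Vsig4 (r = 0.992, 0.982 and 0.981). For the mean of the C1q chains they were Fank1, Cdh26 and Lypla2 (r = 0.993, 0.990 and 0.989), and for C3ar1 Abcd3, Inpp5b and Usp30 (r = 0.992, 0.991 and 0.990). With the genotype means removed, Fgl2 was again among the 3 most like Vsig4 (r = 0.992), whereas none of the 3 named for Fcna, for C1q or for C3ar1 recurred.

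Other complement genes were read from the same fit. Of 48 listed, 41 had a probe set and 25 were tested; 2 were higher, 3 lower and 20 did not pass, with a median log2 difference of -0.02. The 5 called genes compare with 13.1% called among all tested genes.

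In the classical arm, C1ra, a gene for the C1r protease that C1q activates, had 207, 236 and 167 in Gata6-KO and 1157, 1059 and 1117 in Gata6-WT. Every Gata6-KO array was well below every Gata6-WT array, and C1ra fell 5.18-fold (log2 -2.37 ± 0.16 SE, limma adjusted p = 3.2e-05). C1s1 lay below the filter, at 4.18 to 20.4 in Gata6-KO and 25.9 to 65.7 in Gata6-WT.

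Colec12, a scavenger receptor with a collectin domain, was listed with the lectin arm, and whether it starts that arm was not examined. Its signals were 3836, 3785 and 5802 in Gata6-KO and 2661, 3081 and 2120 in Gata6-WT. Colec12 rose 1.69-fold with no overlap (log2 0.76 ± 0.19 SE, limma adjusted p = 0.034). It no longer passed without Gata6-KO replicate 3 (adjusted p = 0.088), Gata6-WT replicate 1 (0.067) or Gata6-WT replicate 3 (0.093), or in replicates 2 and 3 alone (0.086). The call also depended on the model, as it was lost without the intensity trend (limma adjusted p = 0.12) and with no filter (0.053). Fcnb, the other mouse ficolin gene, had 148, 86.7 and 72.0 in Gata6-KO and 8.58, 108 and 95.6 in Gata6-WT, which overlap (log2 0.71 ± 0.59 SE, limma adjusted p = 0.51). Fcnb is named outside the naming rule, with its values known, and it was at -0.047 without Gata6-WT replicate 1.

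In the alternative arm, Cfb, factor B of the C3 convertase, had 1852, 5953 and 3236 in Gata6-KO and 4286, 6043 and 4814 in Gata6-WT, which overlap (log2 -0.60 ± 0.34 SE, limma adjusted p = 0.32). Its value rested on single arrays: without Gata6-KO replicate 2 it was at -1.02 and passed (adjusted p = 0.039), and without Gata6-KO replicate 1 it was at -0.19 (adjusted p = 0.72). Of 7 genes of the terminal components, which form the membrane pore, 6 had a probe set and 0 reached the filter.

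Of the fluid regulators, Clu, Serping1 and Cfi were tested and none passed. The smallest p was that of Clu (log2 -0.61, limma adjusted p = 0.15). Serping1 and Cfi were dim, with genotype mean signals of 63.3 to 78.5. Of 4 tested membrane regulators none passed at the probe set with the highest mean. Cd59a, which blocks the membrane pore, was at 0.58 there (adjusted p = 0.12) and at 0.73 at its other probe set, which passed (adjusted p = 0.027). Cr1l, the rodent regulator Crry, had 4296, 4696 and 4229 in Gata6-KO and 5588, 5064 and 4679 in Gata6-WT (log2 -0.21, limma adjusted p = 0.27). Cd46 was dim, with 118, 44.6 and 69.9 in Gata6-KO and 101, 97.9 and 86.6 in Gata6-WT, which overlap. It was at -0.32 (limma adjusted p = 0.61, 95% interval -1.08 to 0.43), and within -0.62 to -0.046 with 1 array left out.

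Of 10 tested receptor genes, 1 was higher and 2 lower, where 5.61% and 7.46% of all tested genes were. Scarf1, a scavenger receptor that binds C1q on apoptotic cells, had 532, 635 and 524 in Gata6-KO and 202, 148 and 120 in Gata6-WT. It rose 3.41-fold (log2 1.77 ± 0.21 SE, limma adjusted p = 0.00069). Cd93, a glycoprotein once described as a C1q receptor, fell 5.49-fold, with 3645, 2846 and 1670 in Gata6-KO and 14464, 14161 and 14210 in Gata6-WT (limma adjusted p = 0.00020).

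Itgb2, the beta chain shared by the iC3b receptors CR3 and CR4, had 32367, 30389 and 31237 in Gata6-KO and 41794, 45893 and 50051 in Gata6-WT, and fell 1.46-fold (limma adjusted p = 0.0095); without the intensity trend it did not pass (adjusted p = 0.072). Its partner Itgam, the CD11b on which the cells were sorted, did not pass (log2 0.24, adjusted p = 0.51). C5ar1, the C5a receptor, is named after its values were seen: it was at 0.64 at its brighter probe set (adjusted p = 0.071) and at 0.94 at the other, which passed (adjusted p = 0.0046). At the brighter one it passed without Gata6-KO replicate 1 (0.83, adjusted p = 0.031), in replicates 2 and 3 alone (0.66, adjusted p = 0.047), with a term for replicate 1 (adjusted p = 0.0085) and with the replicate number as a block (adjusted p = 0.0098).

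**Figure D4:**
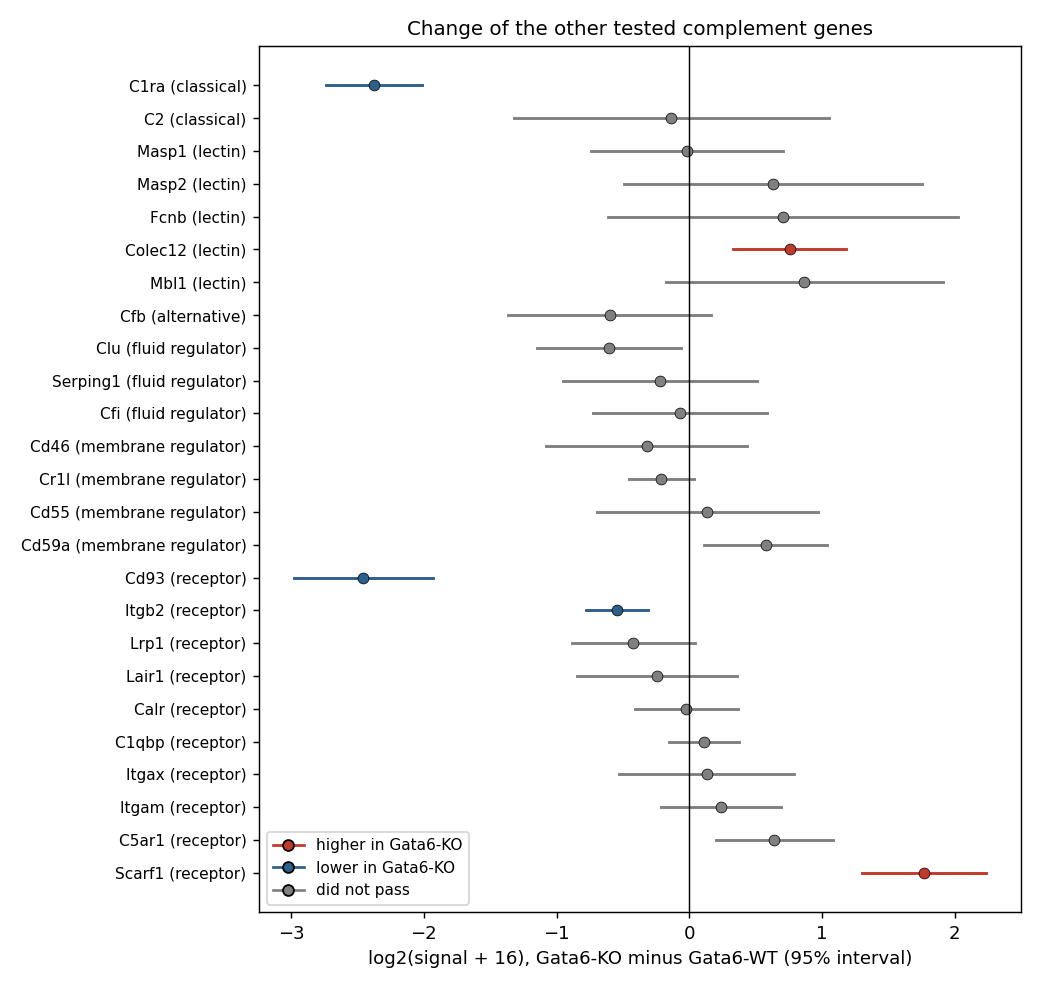
Difference in log2(signal + 16), Gata6-KO minus Gata6-WT, of the 25 other complement genes tested, grouped by role, with 95% intervals from limma. C1ra and Cd93 lie farthest to the left, at -2.37 and -2.46, and Scarf1 farthest to the right, at 1.77.

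The targeted gene and cell markers were checked. Gata6 fell at 2 of its 3 probe sets, by 1.15 and 0.88 on the log2 scale (limma adjusted p = 0.0043 and 0.011), and was at -0.01 at the third; where they lie relative to the deletion is not known here. All 10 peritoneal macrophage markers were measured, with a summed signal of 229454 to 237208 in Gata6-KO and 300752 to 380802 in Gata6-WT. Of these, 1 was higher in Gata6-KO (Mertk), 5 were lower and 4 did not pass. The 5 lower were Adgre1, Icam2, Timd4, Alox15 and Cxcl13, and the 4 that did not pass were Itgam, Csf1r, Cd14 and Prg4. Of 6 monocyte markers, 4 were measured and the 3 tested (Ccr2, Chil3 and Plac8) were all higher in Gata6-KO. The summed signal of the 4 was 2845 to 12838 in Gata6-KO and 383 to 725 in Gata6-WT. Most of the Gata6-KO sum was Ccr2, at 9632, 2400.5 and 1740 in replicates 1, 2 and 3 at its brightest probe set. Cx3cr1 was below the filter. The summed signal did not overlap for mast cell markers (326 to 494 in Gata6-KO, 510 to 610 in Gata6-WT), of which 2 were tested and none passed. It did not overlap for neutrophil markers either (369 to 720 in Gata6-KO, 903 to 1589 in Gata6-WT). That sum is mostly S100a8, with 293 to 664 in Gata6-KO and 847 to 1484 in Gata6-WT. S100a8 was the 1 of 5 measured that was tested, and it was lower (log2 -1.20, limma adjusted p = 0.029). The others lay below the filter, where S100a9, Camp and Ltf had differences above 0 and Mmp8 was at -0.40. The sums overlapped for the other 7 cell types. Among them, the dendritic cell marker Cd209a was lower in Gata6-KO (log2 -2.17, limma adjusted p = 0.010). The 2 other dendritic cell markers tested did not pass. The part of these markers in the Fcna, C1ra, Cd93 and Scarf1 differences was not tested.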

How the data were processed

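The deposited table holds 1 linear intensity per probe set for each of 6 arrays, made with MAS5 and affy (versions not stated) per the submitters' processing notes. Trimming 2% of probe sets at either end gave a mean of 500 on each array, so the authors had scaled the intensities to a common level before deposit; no detection calls were used. Median signals were 79.7 to 88.5. Signals were used as log2(signal + 16) without renormalizing. After removal of 64 control probe sets, those with a mean above the 40th percentile entered a linear model in limma 3.58.1 (R 4.3.3, moderated with an intensity trend). Its p-values are two-sided and were adjusted by Benjamini-Hochberg across every probe set tested, with a threshold of 0.05. Each gene is read at its brightest tested probe set (by mean log2). The limma step was tested on simulated data. The number of arrays limits the precision, and p-values cover the spread between pools that the labels call biological replicates.

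The members, gene lists, tests and alternatives were chosen with earlier results of these data known. The text names all members, every other complement gene past the threshold and, in role groups without one, up to 3 with the smallest p. Symbols came from the array annotation. RefSeq windows carry the GRCm38.p6 build, and no build is named for the values. Alternatives were quantile normalization, median scaling, no filter, the 60th percentile as filter, pseudocounts of 1 and of 64, no trend, array weights, the replicate block, omission of each array, replicates 2 and 3 alone, a term for replicate 1, averaged probe sets per gene, and stricter thresholds. Plots used Python 3.11.15 and matplotlib 3.10.9.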

Additional observations from a re-analysis of the deposited data

Results flagged for a closer look

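The dim Cfp probe set had a log2 difference of 0.49 in replicates 2 and 3, with both Gata6-KO arrays above both Gata6-WT arrays, and of -0.15 in replicate 1. The limma interaction had an adjusted p of 1.00 (unadjusted 0.23), and the brighter Cfp probe set was below 0 in both, at -0.38 and -0.20.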

How the results depend on the processing

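Fcna kept its direction and passed under all 20 alternatives tried, at a log2 of 1.47 to 1.69 (adjusted p up to 0.0047), although averaging probe sets changes nothing for a gene that has 1. The number of members called higher was 1, and 3 after quantile normalization (with C1qb and C1qc). The number called lower was 0, and 1 with median scaling or array weights and 0 to 1 with 1 array left out (Vsig4 without Gata6-KO replicate 3, Cfp without Gata6-WT replicate 1). Of the other complement genes, 2 were higher, but 1 (without Colec12) with no filter, with no trend, at an adjusted p under 0.01 or with at least a 2-fold change. The number higher was 4 after averaging probe sets per gene and 1 to 3 with 1 array left out. The number lower was 3, and 2 with no trend or with at least a 2-fold change (without Itgb2) and 4 without Gata6-KO replicate 2 (with Cfb). In replicates 2 and 3 alone C1qa (-0.014), Serping1 (0.051) and Cfi (0.12) changed sign, as did Fcnb (-0.31), and with 1 array left out Cfi ran from -0.22 to 0.10, Fcnb from -0.047 to 1.12 and Itgam from -0.030 to 0.41; the cause was not tested, and none of these genes passed in any fit. C1qa minus C1qc ran from -0.074 to 0.047 with 1 array left out and was -0.14 after quantile normalization. C1qc minus C1qb was 0.00080 with the C1qb probe set without the _x_at suffix, an alternative chosen after seeing the data; these exact tests could not pass at this number of arrays.

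With the replicate number as a block, the members called were 1 higher and 0 lower, as without it; of the other complement genes Colec12 lost its call (adjusted p = 0.051) and C5ar1 gained one (adjusted p = 0.0098), so 2 were higher and 3 lower. Deviations of same-numbered arrays correlated at 0.13, 0.07 and 0.07 for replicates 1, 2 and 3, so the numbers were not taken as pairs.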
